A study of Homo sapiens with 3 samples.

Results

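MHC class I molecules display short peptides, cut from the proteins made inside a cell, at its surface for inspection by cytotoxic T cells and natural killer cells. Proteasomes cut the proteins, and cells exposed to interferon exchange catalytic subunits of the proteasome for those of the immunoproteasome, PSMB8 and PSMB9 among them. The transporter formed by TAP1 and TAP2 carries the peptides into the endoplasmic reticulum, where tapasin (TAPBP) loads them onto a class I heavy chain (HLA-B, HLA-C or HLA-E here) held by beta-2 microglobulin (B2M). Tumor cells often lower the expression of these genes, and hepatocytes normally carry little class I. The 9 genes of this pathway were read from the mRNA sequencing of a human hepatocellular carcinoma (HCC) line and a pair of its subclones, by gene symbol, and were 9 of the 16149 genes listed in any library. All 9 were listed in each of the 3 libraries, and all 9 passed the minimum mean level used below.

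The libraries came from the parental line HCCLM3, described in the labels as having low metastatic ability, from subclone 1, with a higher metastatic ability directed to lung, and from subclone 2, with a dual ability to reach lung and lymph nodes of the celiac region. The study's methods name the parental line HCCLM3-R, a derivative of HCCLM3 that expresses red fluorescent protein, and give it a high metastatic potential. Subclones were grown from single cells, by limiting dilution of cells taken from lung or lymph node metastases of orthotopic xenografts in nude mice, so each subclone is 1 clone, and neither the labels nor the text says which of the established clones were sequenced. Nude mice lack mature T cells and keep natural killer cells. RNA was taken from cells cultured in DMEM, and no interferon or other treatment is named for any of the 3 cultures. Each cell line had 1 library, so the spread between replicates is unknown and no difference was tested. Intervals given here are 95% intervals of the reads behind a value (exact Poisson for levels, exact Clopper-Pearson for folds and shares). They cover counting error only and compare libraries rather than cell lines.

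Levels are RPKM, reads of a gene scaled to the length of the gene and to the reads of its library, so levels of different genes can be set side by side. The reads behind each RPKM were recovered from the steps between RPKM values, and the totals of the libraries were 4488825, 4609696 and 4725150 reads for the parent, subclone 1 and subclone 2. A member with 20 reads, the lowest count among the 9 genes, therefore has a wide interval. The epithelial keratin genes KRT8 and KRT18 were among the highest in all 3 libraries, at 953 to 1742 RPKM. ALB, the serum albumin of hepatocytes, had 25 reads in the parent line, 517 in subclone 1 and 736 in subclone 2. TTR, APOA1 and SERPINA1, which hepatocytes secrete, and EPCAM had 0 to 4 reads in any library. Of 10 leukocyte markers, whose cells carry much class I, 7 were listed in the values used here, and 5 or 6 were above 0 in each library. CD3E, CD2 and FCER1G were not listed for any library. PTPRC, the CD45 antigen of all leukocytes, had 2 reads in the parent and 0 in both subclones. The list summed to 9.67 RPKM in the parent line, 16.8 in subclone 1 and 13.3 in subclone 2, most of it CD79A at 7.79, 11.9 and 10.3 RPKM. In RNA from a whole culture, fewer cells of a kind and less RNA per cell cannot be told apart.

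Most of the pathway was higher in both subclones than in the parent. Folds are ratios of RPKM, and counts of genes past a fold use log2 of (RPKM + 0.1) over (RPKM + 0.1), a scale that understates the change of low genes. Relative to the parent, subclone 1 had HLA-B, HLA-C and PSMB9 at 2-fold or more, which is 3 of 9 genes, against 4.90% of the 11370 genes with a mean level of at least 1 RPKM. None of the 9 was at least 2-fold lower, against 1.82% of all genes. Subclone 2 had the same 3 genes at 2-fold or more (background 5.33%), and again 0 were at least 2-fold lower (background 2.16%). At a 1.5-fold limit, 5 of 9 were higher in subclone 1 (background 11.6%) and 6 of 9 in subclone 2 (background 12.7%). The interval of the fold lay above 1 for 7 of 9 genes in subclone 1, against 20.5% of 11368 genes with recovered reads, and below 1 for 0 of 9, against 19.7%. In subclone 2 it lay above 1 for 8 of 9 (background 23.3%) and below 1 for 0 of 9 (background 18.6%). TAP2 was the exception in both subclones, and TAP1 was the further exception in subclone 1. The median log2 ratio of the 9 genes was 0.67 in subclone 1 and 0.84 in subclone 2, while the medians over all genes were 0.00 and 0.04. Both comparisons use the same parental library, so they are not independent of each other. The 9 genes were chosen with earlier results of these data known, so the counts beside the backgrounds describe the list and do not test it.

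**Figure D1:**
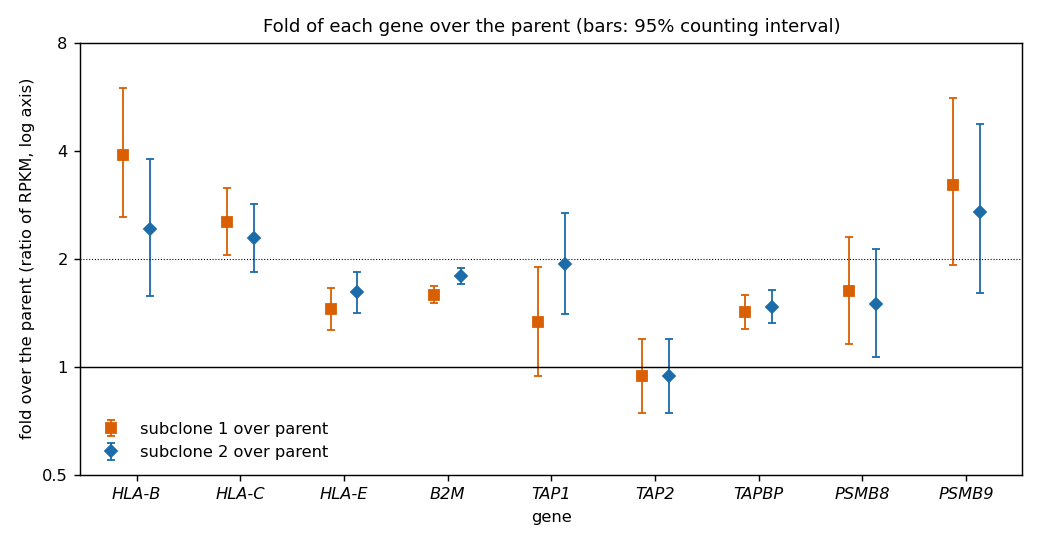
Fold of each gene over the parent (ratio of RPKM, log axis) in subclone 1 (squares) and subclone 2 (diamonds), with bars for the 95% counting interval, a solid line at 1 and a dotted line at 2. Points of HLA-B, HLA-C and PSMB9 lie above 2 for both subclones, and both points of TAP2 lie just below 1.

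Between the subclones fewer of the 9 genes differed. Set against subclone 1, subclone 2 had 0 of the 9 genes 2-fold higher (background 1.42%) and 0 of them 2-fold lower (background 1.39%). The interval of this fold lay above 1 for B2M and TAP1, 2 of 9 against 12.4% of genes, and below 1 for HLA-B alone, 1 of 9 against 8.87%. The median log2 ratio of the 9 genes was 0.00, beside 0.03 over all genes.

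The highest fold over the parent in subclone 1 belonged to a classical heavy chain, HLA-B. This gene (Entrez 3106) encodes the most variable of the class I chains and lies beside HLA-C on chromosome 6. Its level was 4.38 RPKM in the parent (31 reads, 2.97 to 6.21), 17.0 in subclone 1 (124 reads, 14.2 to 20.3) and 10.6 in subclone 2 (79 reads, 8.39 to 13.2). The parent was lowest, subclone 1 highest and subclone 2 between them, and none of the 3 intervals overlapped. The fold over the parent was 3.90 (2.61 to 5.98) in subclone 1 and 2.42 (1.58 to 3.80) in subclone 2, which put HLA-B at percentiles 98.7 and 96.5 of all genes. Subclone 2 was at 0.622 (0.463 to 0.831) of subclone 1, the lowest of these ratios among the 9 genes.

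HLA-C (Entrez 3107), a classical heavy chain that also serves as a ligand of killer-cell receptors, was at 17.3 RPKM in the parent (120 reads, 14.4 to 20.7), 43.9 in subclone 1 (312 reads, 39.1 to 49.0) and 39.5 in subclone 2 (288 reads, 35.1 to 44.3). Both subclones were above the parent without overlap of the intervals, and their own intervals overlapped. The folds over the parent were 2.53 (2.04 to 3.15) and 2.28 (1.84 to 2.85), and subclone 2 was at 0.901 (0.765 to 1.06) of subclone 1. The fold of HLA-B divided by that of HLA-C was 1.54 (0.969 to 2.49) in subclone 1 and 1.06 (0.653 to 1.76) in subclone 2, so the 2 genes were not told apart by their folds over the parent. Between the subclones this quotient was 0.690 (0.492 to 0.966).

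The bases just upstream of HLA-B and HLA-C are shown because these neighbors had similar folds and are close copies of each other. They are the 250 bases before the start of each gene in the RefSeq promoter table (GRCh38.p14), minus strand, written 5′ to 3′ along the gene. Capitals mark matches to the kappa B letters GGGNNTTCC, which fit some forms of the element that NF-kappa B binds. They also mark TGACGC, the letters of the site alpha element that CREB and ATF proteins bind in class I promoters. Only these exact letters were searched, so other forms of either element were not counted.
HLA-B, chr6:31357180-31357429: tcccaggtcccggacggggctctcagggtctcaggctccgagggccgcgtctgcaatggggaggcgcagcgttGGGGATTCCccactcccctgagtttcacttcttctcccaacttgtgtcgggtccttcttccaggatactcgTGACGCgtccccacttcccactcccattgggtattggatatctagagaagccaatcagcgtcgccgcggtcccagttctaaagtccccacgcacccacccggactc
HLA-C, chr6:31272093-31272342: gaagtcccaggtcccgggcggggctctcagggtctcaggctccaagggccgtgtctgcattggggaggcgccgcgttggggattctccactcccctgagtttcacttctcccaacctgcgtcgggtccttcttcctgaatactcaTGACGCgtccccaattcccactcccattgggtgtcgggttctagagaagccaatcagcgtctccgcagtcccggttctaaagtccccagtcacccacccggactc
Of 246 aligned bases in these windows 226 were identical (91.9%). The HLA-B window held the kappa B letters at 177 bases and the site alpha letters at 106 bases before the start. The HLA-C window held the site alpha letters at 105. Where HLA-B had the kappa B match, HLA-C differed in the last letter of the pattern, so this contrast depends on the exact letters searched. Searched on both strands over the same length, the kappa B letters were in 5.78% and the site alpha letters in 7.67% of 35116 promoters of the table. A match describes the letters of the reference and is not evidence of binding in these cells.

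HLA-E (Entrez 3133), a chain of low variability that presents leader peptides of other class I chains to natural killer cells, had a smaller fold. It was at 30.4 RPKM in the parent (365 reads, 27.3 to 33.6), 44.1 in subclone 1 (544 reads, 40.4 to 47.9) and 49.0 in subclone 2 (620 reads, 45.2 to 53.0). The parent was lowest and did not overlap the subclones, which overlapped each other. The folds were 1.45 (1.27 to 1.66) and 1.61 (1.42 to 1.84), and subclone 2 was at 1.11 (0.989 to 1.25) of subclone 1. The fold of HLA-B was 2.68 times (1.75 to 4.21) that of HLA-E in subclone 1 and 1.5 times (0.957 to 2.40) in subclone 2, where the interval held 1. No promoter entry of HLA-E was matched.

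Within the summed mRNA of HLA-B, HLA-C and HLA-E, the 3 heavy chains among the 9 genes, the composition also differed. The sum was 52.1 RPKM in the parent line, 105 in subclone 1 and 99.1 in subclone 2. The share of HLA-B in it was 8.41%, 16.2% and 10.7%, that of HLA-C was 33.3%, 41.8% and 39.9%, and that of HLA-E was 58.3%, 42.0% and 49.4%. These genes share long stretches of sequence and differ between people, and how reads that match several of them were counted is not given in the sources used here, so the split between them is uncertain. HLA-H, a class I pseudogene chosen for this reason after values were seen, had 61, 121 and 83 reads in the parent, subclone 1 and subclone 2, with folds of 1.93 (1.41 to 2.67) and 1.29 (0.918 to 1.83) over the parent. The fold of HLA-B was 2.02 times (1.19 to 3.45) and 1.87 times (1.07 to 3.31) that of HLA-H, and whether reads were exchanged between them was not tested.

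**Figure D2:**
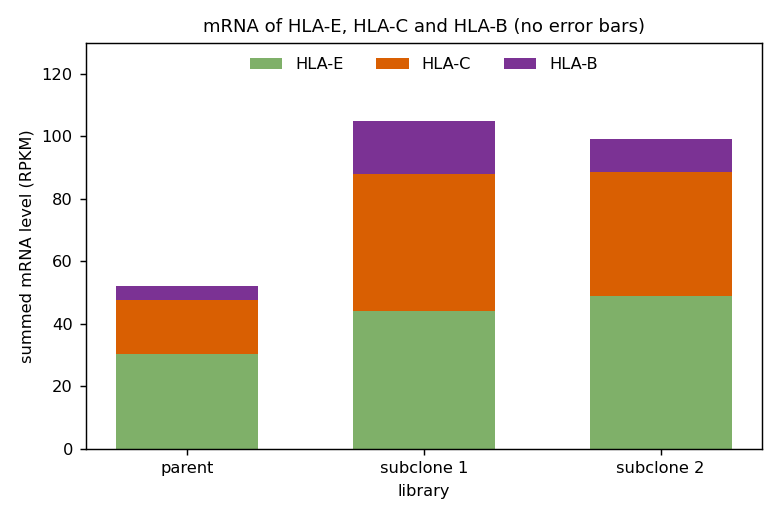
Stacked bars of the RPKM of HLA-E, HLA-C and HLA-B in the 3 libraries, with no error bars. The sum is 52.1 RPKM in the parent line, 105 in subclone 1 and 99.1 in subclone 2, and the upper segments, HLA-C and HLA-B, are thicker in both subclones.

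B2M (Entrez 567), the invariant partner of every heavy chain, lies on chromosome 15, away from the other 8 genes, which are all on chromosome 6. It was by far the highest of the 9 genes, at 479 RPKM in the parent (2121 reads, 459 to 500), 759 in subclone 1 (3455 reads, 734 to 785) and 856 in subclone 2 (3991 reads, 829 to 883). None of the 3 intervals overlapped, and the order was parent, subclone 1, subclone 2. The folds over the parent were 1.59 (1.502 to 1.68) and 1.79 (1.70 to 1.89), and subclone 2 was at 1.13 (1.08 to 1.18) of subclone 1. Its upstream bases are shown because they hold a repeated interferon-stimulated response element (ISRE), the element that interferon regulatory factors bind, whose core letters (GAAA, any 2 bases, GAAA) are in capitals (GRCh38.p14, plus strand).
B2M, chr15:44711267-44711516: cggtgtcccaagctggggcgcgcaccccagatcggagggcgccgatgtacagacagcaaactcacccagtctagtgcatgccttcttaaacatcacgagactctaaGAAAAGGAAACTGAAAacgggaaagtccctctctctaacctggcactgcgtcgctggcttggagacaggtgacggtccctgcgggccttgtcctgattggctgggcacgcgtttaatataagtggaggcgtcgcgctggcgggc
The 2 matches overlap, beginning 144 and 138 bases before the start. The core letters were in 3.02% of the 35116 promoters.

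The transporter genes differed from each other. TAP1 (Entrez 6890) and TAP2 (Entrez 6891) encode the partner chains of 1 pump, and both lie in the class II part of the MHC region, where the order along chromosome 6 is TAP2, PSMB8, TAP1, PSMB9 with no other protein-coding gene between them. TAP1 was at 4.42 RPKM in the parent (59 reads, 3.36 to 5.70), 5.91 in subclone 1 (81 reads, 4.69 to 7.34) and 8.54 in subclone 2 (120 reads, 7.08 to 10.2). Subclone 2 was highest and did not overlap the parent, and subclone 1 overlapped both. The folds over the parent were 1.34 (0.944 to 1.90) in subclone 1 and 1.93 (1.40 to 2.69) in subclone 2, and subclone 2 was at 1.45 (1.08 to 1.94) of subclone 1. TAP1 was the member with the highest ratio of subclone 2 to subclone 1.

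TAP2 was at 5.77 RPKM in the parent (147 reads, 4.87 to 6.78), 5.42 in subclone 1 (142 reads, 4.57 to 6.39) and 5.44 in subclone 2 (146 reads, 4.59 to 6.40). All 3 intervals overlapped almost entirely. The folds over the parent were 0.941 (0.742 to 1.19) and 0.944 (0.745 to 1.19). Both intervals held 1, and any fold within their bounds is compatible with the reads. The fold of TAP1 divided by that of TAP2 was 1.42 (0.927 to 2.18) in subclone 1 and 2.05 (1.37 to 3.08) in subclone 2. The ratio of TAP1 to TAP2 RPKM within a library was 0.766 (0.557 to 1.04) in the parent line, 1.09 (0.819 to 1.44) in subclone 1 and 1.57 (1.22 to 2.01) in subclone 2.

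TAPBP (Entrez 6892), tapasin, bridges the transporter and an empty heavy chain. It was at 34.5 RPKM in the parent (585 reads, 31.7 to 37.4), 49.0 in subclone 1 (853 reads, 45.7 to 52.4) and 50.7 in subclone 2 (906 reads, 47.5 to 54.2). The parent was lowest with no overlap, and the subclones overlapped. The folds were 1.42 (1.28 to 1.58) and 1.47 (1.32 to 1.64), and subclone 2 was at 1.04 (0.943 to 1.14) of subclone 1. TAPBP mRNA was more abundant than TAP1 or TAP2 mRNA in all 3 libraries. In the RefSeq table TAPBP overlaps RGL2, which had 75, 112 and 136 reads, and TAP1 and PSMB8 overlap the antisense gene PSMB8-AS1, not analysed here. Since the strand of reads is not given in the sources used here, reads of overlapping genes cannot be told apart.

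The immunoproteasome genes were both higher in the subclones. PSMB9 (Entrez 5698), the subunit that takes the place of PSMB6, was at 4.25 RPKM in the parent (20 reads, 2.60 to 6.57), 13.7 in subclone 1 (66 reads, 10.6 to 17.4) and 11.5 in subclone 2 (57 reads, 8.72 to 14.9). Both subclones were above the parent without overlap, and they overlapped each other. The folds over the parent were 3.21 (1.92 to 5.60) and 2.71 (1.60 to 4.76). This was second to HLA-B in subclone 1 and the highest of the 9 genes in subclone 2. Subclone 2 was at 0.843 (0.581 to 1.22) of subclone 1.

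PSMB8 (Entrez 5696), which takes the place of PSMB5, was at 7.93 RPKM in the parent (57 reads, 6.003 to 10.3), 12.9 in subclone 1 (95 reads, 10.4 to 15.7) and 11.9 in subclone 2 (90 reads, 9.56 to 14.6). The parent was lowest in both comparisons, with no overlap with subclone 1 and some overlap with subclone 2. The folds were 1.62 (1.16 to 2.30) and 1.5 (1.06 to 2.13), and subclone 2 was at 0.924 (0.685 to 1.25) of subclone 1. PSMB10, the other inducible subunit, which replaces PSMB7, had 42, 43 and 41 reads and folds of 0.997 (0.636 to 1.56) and 0.927 (0.588 to 1.46). The fold of PSMB9 was 3.22 times (1.59 to 6.59) that of PSMB10 in subclone 1 and 2.92 times (1.43 to 6.03) in subclone 2.

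Set against its constitutive counterpart, PSMB9 made up 4.69% (2.88 to 7.18) of the summed RPKM of PSMB9 and PSMB6 in the parent line, 14.7% (11.5 to 18.4) in subclone 1 and 12.2% (9.37 to 15.6) in subclone 2. PSMB8 made up 12.2% (9.33 to 15.5) of its sum with PSMB5 in the parent line, 19.3% (15.9 to 23.1) in subclone 1 and 18.6% (15.2 to 22.4) in subclone 2. Both shares were lowest in the parent. The interval of the parent was separate from those of both subclones for PSMB9, and for PSMB8 it overlapped that of subclone 2. Compared directly, the fold of PSMB8 divided by that of PSMB5 was 1.73 (1.19 to 2.52) in subclone 1 and 1.64 (1.13 to 2.41) in subclone 2. PSMB10 made up 9.57% (6.99 to 12.7), 12.1% (8.93 to 16.01) and 11.2% (8.18 to 14.9) of its sum with PSMB7, also lowest in the parent, with intervals that all overlapped. Of the constitutive subunits, PSMB7 was lower in both subclones, and the intervals of the other two held 1. Folds of PSMB5 were 0.941 (0.808 to 1.09) and 0.912 (0.784 to 1.06), those of PSMB6 were 0.918 (0.783 to 1.07) and 0.956 (0.818 to 1.12), and those of PSMB7 were 0.764 (0.656 to 0.889) and 0.776 (0.668 to 0.902). Constitutive subunits remained the larger part of each pair in all 3 libraries.

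**Figure D3:**
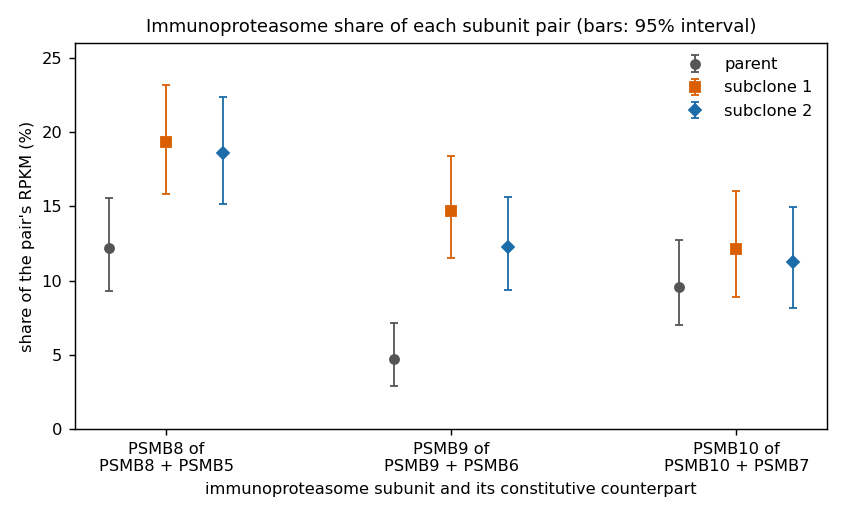
Share of each immunoproteasome subunit in the summed RPKM (%) of that subunit and its constitutive counterpart, by library, with 95% intervals of the reads. The share of PSMB9 is 4.69% in the parent and 12.2% to 14.7% in the subclones, and the intervals of PSMB10 overlap.

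TAP1 and PSMB9 begin 488 bases apart and are read in opposite directions, so the interval between them belongs to both promoters. It is shown because the genes on its sides had different folds. The fold of PSMB9 was 2.40 times (1.27 to 4.64) that of TAP1 in subclone 1 and 1.40 times (0.746 to 2.70) in subclone 2, and between the subclones the quotient was 0.583 (0.361 to 0.940). The windows before TAP1 (minus strand, the start that faces PSMB9) and PSMB9 (plus strand) are printed with that before TAP2 (minus strand), the gene whose level was alike in the 3 libraries. Capitals mark the ISRE core letters on either strand and the site alpha letters.
TAP1, chr6:32853705-32853954: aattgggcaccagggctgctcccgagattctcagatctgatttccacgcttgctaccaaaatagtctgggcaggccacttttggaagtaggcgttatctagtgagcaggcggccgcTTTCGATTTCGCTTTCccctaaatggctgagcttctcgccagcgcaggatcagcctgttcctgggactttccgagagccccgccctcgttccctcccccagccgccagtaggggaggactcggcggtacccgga
PSMB9, chr6:32853942-32854191: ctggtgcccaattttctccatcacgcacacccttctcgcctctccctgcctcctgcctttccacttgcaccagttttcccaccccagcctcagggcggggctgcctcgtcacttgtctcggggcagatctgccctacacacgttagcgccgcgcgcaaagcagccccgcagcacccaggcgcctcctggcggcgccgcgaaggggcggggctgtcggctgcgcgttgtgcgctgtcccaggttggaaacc
TAP2, chr6:32838740-32838989: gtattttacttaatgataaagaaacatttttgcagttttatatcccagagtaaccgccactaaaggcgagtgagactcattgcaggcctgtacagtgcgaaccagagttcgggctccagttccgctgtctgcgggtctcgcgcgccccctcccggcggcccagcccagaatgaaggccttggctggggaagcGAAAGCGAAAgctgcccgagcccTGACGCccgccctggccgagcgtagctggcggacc
The shared interval held 2 overlapping matches to the ISRE core on the strand opposite to TAP1, reaching to 134 bases before its start and outside the 250 bases before PSMB9. TAP2 held an ISRE core match at 58 bases and the site alpha letters at 35 bases before its start. Among members not printed here, TAPBP held 2 overlapping ISRE core matches, at 20 and 14 bases, and the kappa B letters at 55, and PSMB8 held the kappa B letters at 164 bases before 1 of its starts. An ISRE core match was thus found upstream of B2M, TAP1, TAP2 and TAPBP and none in the windows of HLA-B, HLA-C, PSMB8 or PSMB9. For PSMB9 this holds for its window alone, since the matches before TAP1 lie in the interval that both genes share. Only the exact core letters were searched, so other forms of the element were not counted. Whether these letters bear on the folds was not tested. The absence of a match says only that these letters are not in this window.

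Placed in order of level, the parent ran from B2M through TAPBP and HLA-E to HLA-C, then PSMB8, TAP2, TAP1, HLA-B and PSMB9. Intervals separated B2M from TAPBP, HLA-E from HLA-C and HLA-C from PSMB8. The intervals of TAPBP and HLA-E overlapped, as did those of each neighboring pair among the 5 lowest genes. In subclone 1 the order of the upper 4 genes was kept, with HLA-C level with HLA-E, and HLA-B and PSMB9 now followed them, ahead of PSMB8, TAP1 and TAP2. In subclone 2 the upper 4 were again B2M, TAPBP, HLA-E and HLA-C, followed by PSMB8, PSMB9, HLA-B and TAP1, whose neighboring intervals overlapped, and by TAP2, which was separate from TAP1. TAP2 was last in both subclones and sixth in the parent. B2M was at percentile 98.9 to 99.6 of all genes by level, whereas HLA-B was at percentile 26.01 in the parent line, 63.0 in subclone 1 and 48.4 in subclone 2.

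**Figure D4:**
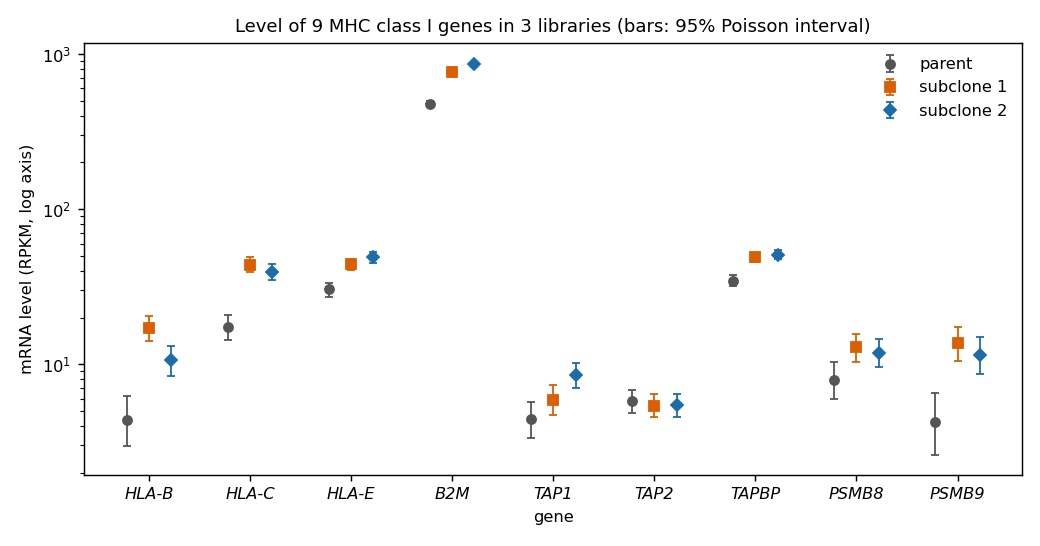
Level of each of the 9 genes (RPKM, log axis) in the parent (circles), subclone 1 (squares) and subclone 2 (diamonds), with bars for the 95% Poisson interval. B2M lies between 479 and 856 RPKM, the parent is the lowest point for every gene but TAP2, and the points of TAP2 coincide within their intervals.

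Other genes of the pathway were described from lists, also chosen with earlier results known, by the same counts as the 9 genes. Of 6 other heavy chains and class I-like molecules, 4 passed the mean of 1 RPKM. They had 3 intervals above 1 in subclone 1 (background 20.5%), 2 in subclone 2 (background 23.3%) and 0 below (background 19.7% and 18.6%). FCGRT, which pairs with B2M to carry IgG, had 75 reads in the parent line, 171 in subclone 1 and 188 in subclone 2. Its folds were 2.22 (1.68 to 2.95) and 2.38 (1.81 to 3.16). HLA-F had 5, 12 and 6 reads, and the interval of its fold held 1 in both comparisons. Of 8 peptide loading chaperones and trimming enzymes, all over the minimum, 5 had an interval above 1 in each subclone (background 20.5% and 23.3%), 2 and 1 had one below 1 (background 19.7% and 18.6%), and none was past 2-fold. Their median log2 ratios were 0.32 in subclone 1 and 0.24 in subclone 2. Of 4 immunoproteasome partners, the activator subunits of PA28 included, 1 and 2 had an interval above 1 (background 20.5% and 23.3%). For 0 of them it lay below (background 19.7% and 18.6%), and the medians were 0.17 and 0.25.

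Factors that bind class I promoters were nearer to the parent. Of 13, 11 passed the minimum, and none was at least 2-fold higher or lower in either subclone. Their median log2 ratios were -0.07 and 0.18, with 2 intervals above and 3 below 1 in subclone 1, and 4 above and 1 below in subclone 2. The same backgrounds apply, and for 11 genes these counts are near them. A pair of these factors is named after their values were seen. IRF1, an interferon-induced activator of class I and TAP1 promoters, had 95, 150 and 197 reads, with folds of 1.54 (1.18 to 2.01) and 1.97 (1.53 to 2.54). Its order by level, from the lowest, was parent, subclone 1, subclone 2. By value alone, TAP1, B2M, HLA-E and TAPBP had the same order, and HLA-B, HLA-C, PSMB8, PSMB9 and TAP2 did not. Of the 9 genes, only TAP1, B2M and HLA-B had an interval of subclone 2 over subclone 1 that excluded 1. The order of the subclones was not told apart for the rest, nor that of the parent and subclone 1 for TAP1. Whether IRF1 bears on these levels was not tested. NLRC5, the class I transactivator, had 13, 31 and 14 reads, under the minimum mean, with folds of 2.32 (1.18 to 4.83) and 1.02 (0.446 to 2.36), and was at 0.441 (0.217 to 0.853) of subclone 1 in subclone 2.

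All 9 interferon receptors, kinases and STATs of the list passed the minimum. They had 6 intervals above 1 in subclone 1 (background 20.5%), 5 in subclone 2 (background 23.3%) and 0 below (background 19.7% and 18.6%). IRF9, the DNA-binding subunit of the factor ISGF3, was the 1 gene past 2-fold, with 19, 41 and 27 reads and folds of 2.10 (1.19 to 3.83) and 1.35 (0.723 to 2.57). Of 15 interferon-stimulated genes 12 passed the minimum, and CXCL10 was not listed for any library in the values used here. Of the 12, 6 had an interval above 1 and 1 had one below in each subclone. The backgrounds were 20.5% above and 19.7% below in subclone 1, and 23.3% and 18.6% in subclone 2. Medians of the 12 were 0.37 and 0.44. XAF1, a pro-apoptotic interferon-stimulated gene, had the highest ratio of these 12 in both subclones, with 12, 62 and 49 reads and folds of 5.03 (2.69 to 10.3) and 3.88 (2.03 to 8.01). IFIT1, a sensor of viral RNA, had 10, 25 and 32 reads and folds of 2.43 (1.13 to 5.68) and 3.04 (1.46 to 6.93). IFI27 was past 2-fold in subclone 1 alone, at 2.86 (1.56 to 5.53) against 1.27 (0.616 to 2.66) in subclone 2. GBP2, a guanylate-binding protein induced by interferon gamma, was past 2-fold in subclone 2 alone, at 2.24 (1.85 to 2.72) against 1.37 (1.11 to 1.70). IFI27 was at 0.443 (0.248 to 0.768) and GBP2 at 1.63 (1.37 to 1.94) in subclone 2 relative to subclone 1, the former lower in subclone 2 like HLA-B and the latter higher like TAP1.

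**Figure D5:**
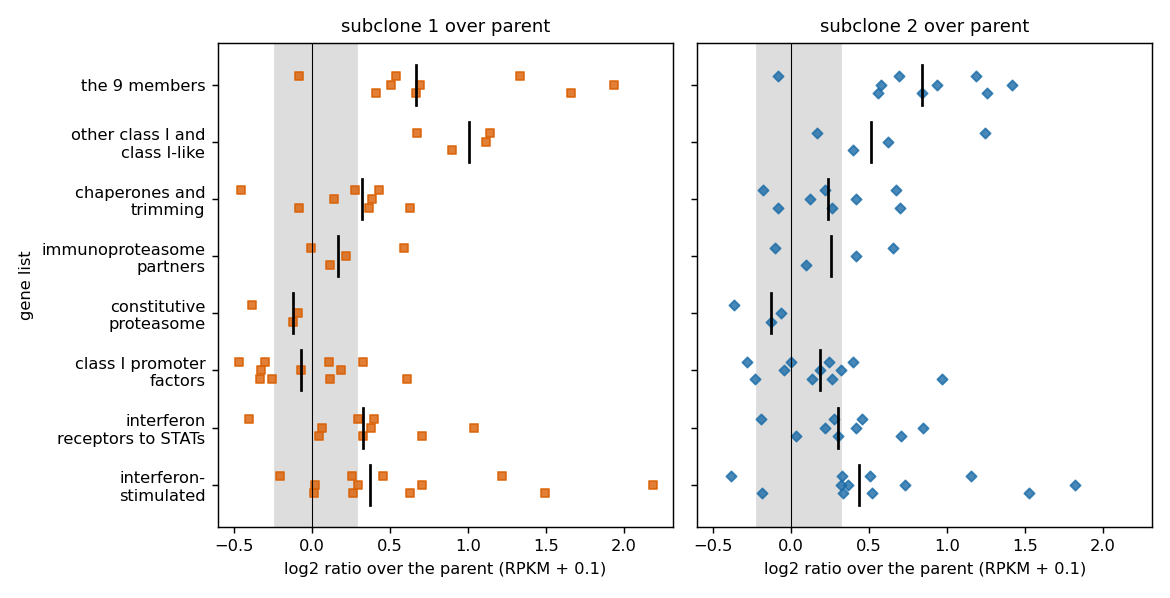
Log2 ratio over the parent (RPKM + 0.1) of each gene with a mean of at least 1 RPKM, by list, in subclone 1 (left) and subclone 2 (right). Black bars are list medians and the grey band runs from the lower to the upper quartile of all 11370 genes. Medians of the 9 genes, 0.67 and 0.84, lie outside the band, and those of the constitutive proteasome subunits lie below 0.

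MHC class II genes and ligands of natural killer cells were counted in the same way. Of 12 MHC class II genes and chaperones, which display peptides from outside the cell, 5 were listed in the values used here and 2 passed the minimum. HLA-DMB and the HLA-DR, HLA-DP and HLA-DQ genes of the list were not listed for any library. The 5 summed to 5.36 RPKM in the parent line, 7.82 in subclone 1 and 6.88 in subclone 2. Neither of the 2 genes over the minimum had an interval outside 1. Of 9 ligands of natural killer receptors and checkpoints, 8 were listed and 5 passed the minimum. None of these was past 2-fold, and 0 intervals in subclone 1 (background 20.5%) and 3 in subclone 2 (background 23.3%) lay above 1. Of the marker lists, 3 of 6 liver genes over the minimum were at least 2-fold higher in each subclone (ALB, APOB and FGB), against backgrounds of 4.90% and 5.33%. Median log2 ratios of the 6 were 1.25 and 1.25. Fibroblast and endothelial markers summed to 19.1 RPKM in the parent line, 41.0 in subclone 1 and 28.7 in subclone 2. All 8 of that list were listed and 4 passed the minimum. DCN and LUM were at least 2-fold higher in both subclones and PECAM1 in subclone 1. COL3A1 was lower in both, at 0.5 (0.356 to 0.697) and 0.105 (0.0524 to 0.190) of the parent, while VWF, CDH5 and COL1A2 had 0 to 2 reads in any library. The part of these markers and of CD79A in the class I levels was not tested.

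Genes with a pattern like that of HLA-B were found by the distance between pairs of log2 ratios over the parent, among 8210 genes with a mean of at least 5 RPKM, over these 3 libraries alone. The nearest were APLP1 (distance 0.160), MFI2 (0.204), CTSO (0.247), MT1X (0.248) and SCUBE1 (0.266). APLP1, the first of them, was at 4.64, 16.6 and 10.5 RPKM in the parent, subclone 1 and subclone 2, close to HLA-B in level as well. None of these 5 is one of the 9 genes, and with 3 libraries such a likeness is a description.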

How the data were processed

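Messenger RNA of 3 cultured cell lines, 1 library each, was sequenced after Trizol extraction and Illumina TruSeq library preparation. The authors deposited RPKM values per gene, with Entrez number and symbol, on the hg19 build named in the submitters' processing notes; the aligner, annotation, read filters and the handling of strand and of multiply matching reads are not given in the sources used here. The members and lists were chosen with earlier results of these data known.

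The 9 genes were taken by symbol. Ratios were log2 of (RPKM + 0.1) over (RPKM + 0.1), beside those of the 11370 genes, of 16149, whose RPKM averaged 1 or more. RPKM values of a gene are whole multiples of what 1 read is worth. The library totals came from the common step of the 200 lowest genes per library, of which 93% to 94.5% fell within 0.02 base of a whole length. The reads of a gene came from the smallest length of 150 to 30000 bases that gave whole reads in all libraries within 0.002 read (1e-06 of the reads where that is more), or from a multiple of it up to 12 that came within 10% of a GENCODE transcript, which resolved 99.98% of these genes. These steps were tested on simulated data. Exact intervals at 95% cover counting error only. Named were the 9 genes, PSMB10, per list up to 4 genes at least 2-fold changed from the parent, the markers, and the 5 genes nearest to the member with the largest ratio. Outside this rule, HLA-H, RGL2, IRF1, NLRC5 and, in the closing section, NFYA, NFYB, NFYC, CD14 and COL1A1 were named after values were seen, and PSMB5, PSMB6 and PSMB7 as counterparts. Promoter letters came from RefSeq (GRCh38.p14), in which 8 of 9 genes matched, and no coordinates were converted from hg19. Some related genes are not reported here. With 1 library per cell line there was no test. Alternatives were another pseudocount (0.01 or 1), another scaling (equal sums, median centring, the upper quartile, ACTB or GAPDH), another minimum (none, or an average RPKM of 5) and a limit of 1.5-fold. Python 3.11.15, numpy 2.4.6, pandas 2.3.3, scipy 1.17.1, biopython 1.88 and matplotlib 3.10.9 were used.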

Additional observations from a re-analysis of the deposited data

Results flagged for a closer look

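For a few genes of the lists the ratios over the parent had opposite signs in the subclones, and the counting interval of subclone 2 over subclone 1 did not hold 1. None of these genes had both folds over the parent separated from 1, none of the 9 class I genes was among them, and with 1 library per cell line the difference between subclones was not tested. NFYB, a subunit of the CCAAT-binding factor NF-Y that binds class I promoters, had 197, 161 and 228 reads in the parent, subclone 1 and subclone 2. Its log2 ratio in subclone 1 was -0.33, and its folds were 0.796 (0.642 to 0.985) and 1.10 (0.905 to 1.34). NFYC, a subunit of the same factor, had 106, 88 and 127 reads, a log2 ratio of -0.30 in subclone 1 and folds of 0.808 (0.602 to 1.08) and 1.14 (0.873 to 1.49). NFYA, the other subunit, was below the parent in both subclones, at folds of 0.836 (0.710 to 0.984) and 0.821 (0.698 to 0.967). CD14, a monocyte marker, had 1, 8 and 0 reads and a log2 ratio of 2.29 in subclone 1, and with 0 against 1 read no direction can be read in subclone 2. COL1A1, a fibroblast collagen, had 9, 11 and 1 reads, a log2 ratio of 0.20 in subclone 1 and folds of 1.19 (0.448 to 3.25) and 0.106 (0.00241 to 0.762).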

How the results depend on the processing

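No paired analysis was possible because 1 library stood for each line. Of 189 ratios of the 9 genes under 7 alternatives, 186 lay within their counting interval and 3 moved beyond it, all of B2M: 0.53 (log2) for subclone 1 over parent divided by ACTB, and 0.30 and 0.29 for subclone 2 over subclone 1 divided by ACTB and GAPDH. None whose interval excluded 1 changed sign, while TAP2 (-0.04 to 0.13) and PSMB8 (-0.16 to 0.01) in subclone 2 over subclone 1 did. Counting intervals are wide for genes with few reads, so staying within them says little of how such genes depend on the processing. HLA-B, HLA-C and PSMB9 stayed past 2-fold over the parent under each scaling. The median of the 9 genes in subclone 1 was 0.53 divided by ACTB. At 1.5-fold 5 and 6 genes were higher in subclone 1 and 2 than the parent, and 1 was lower in subclone 2 than subclone 1. Division by ACTB or GAPDH shifted the median of all genes by up to -0.13 and 0.12.

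Higher and lower genes past the limit numbered 347 and 117 in subclone 1 over parent, 380 and 150 in subclone 2 over parent, and 80 and 77 between the subclones with a pseudocount of 1. The limit of 1.5-fold gave, in this order, 1317 with 848, 1444 with 830, and 540 with 467. Without a filter there were 1523 with 884, 1553 with 941, and 842 with 902, and a minimum average of 5 RPKM left 233 with 71, 253 with 93, and 43 with 46. Division by ACTB gave 328 lower genes in subclone 1, where the higher share of calls went from 72.9% to 57.8%, and for subclone 2 over subclone 1 it went from 50.5% to 64.0% with ACTB and 62.6% with GAPDH. Depth limits PSMB9 and HLA-B most, at 20 and 31 reads in the parent.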
